A study of Caenorhabditis elegans with 51 samples.

Results

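C-in cells are the descendants of Cap and Cpp in the *C*. *elegans* embryo, referred to together as Cxp descendants, which internalize during gastrulation and later form body muscle. Their transcriptome was compared with that of C-, the same embryo with all C descendants removed. Libraries were chosen by title and comprised 5 C-in and 5 C- libraries, 10 of the 51 libraries in the series, from embryos numbered 1, 2, 4, 5 and 6. Embryos 3 and 7 had been rejected by the authors because spike-in RNA took too large a share of one of their samples, and were used only as an alternative. Each pair of libraries came from 1 embryo of about the 100-cell stage, taken apart by hand with an aspirating needle under a confocal microscope, with cells recognized by fluorescence. Every C embryo carried both pR02D3.1::mKate2 and pHLH-1::mNG, so the C- cells carried the reporters too, and the *hlh-1* and *R02D3.1* promoters used to find the cells make those genes' own levels a description and not a finding. C-out, the non-internalizing Cxa sister cells of the same embryos (5 libraries), and D+ and D-, the descendants of D and the rest of the embryo from other embryos carrying pFKH-2::mNG (7 libraries each), are given only where they show how C-in differed.

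Body muscle in the worm embryo is specified by a small set of transcription factors: HLH-1, the MyoD homolog, UNC-120, related to serum response factor, and HND-1, a HAND factor. In the C lineage they act after PAL-1, a Caudal homolog that gives the lineage its identity. The same founder cell also produces epidermis, from the Cxa branch, and its posterior muscle is patterned by homeobox genes such as *vab-7*, an even-skipped homolog.

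The C-in libraries held 1083767 to 1484869 counted reads (median 1204474) and the C- libraries 1952810 to 3054633 (median 2505313). A C-in library had 1842 to 2490 genes above 25 RPKM (read counts scaled to gene length and to library size), the level the study calls detected, against 3946 to 5491 in C-. C-in libraries were also less alike between embryos. The correlation of log2(RPKM + 25) across genes was 0.303 to 0.390 between C-in libraries (median 0.374) and 0.535 to 0.746 between C- libraries. Between C-in and C- libraries it was 0.258 to 0.433 (median 0.353), so C-in libraries were hardly more like each other than like C-. Reads of ribosomal RNA and mitochondrial genes took 3.54% to 5.67% of C-in counts and 2.35% to 3.84% of C- counts. A count of 3 corresponded to 2.02 to 2.77 CPM (counts scaled to library size) in C-in and 0.982 to 1.54 in C-, and since reads were amplified from a few cells without molecular identifiers, such limits cover counting error only. The library labelled C-out replicate 1 stood apart from its group. It correlated with the C- libraries at 0.610 to 0.794 and with the other C-out libraries at 0.499 to 0.536. Counts of genes called against C-out are therefore given with and without it, while C-out values for single genes include it. The sources used here do not say whether counting used strand. Of the genes named here, *hlh-1*, *epi-1*, *zmp-1*, *ceh-16*, *pal-1*, *cwn-2*, *D1054.1*, *lag-1*, *act-4*, *unc-112*, *mlc-4*, *cap-2*, *F46B6.12*, *spn-4* and *pie-1* overlap another annotated gene, and the reads of the partners cannot be told apart. Values for each library are RPKM and are listed in the order of embryos 1, 2, 4, 5 and 6.

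The muscle markers *hlh-1* and *unc-120* were high in the C-in libraries. *hlh-1* stood at 1148, 805, 587, 249 and 691 RPKM in C-in and at 218, 55.2, 48.5, 82.8 and 104 in C-. The lowest C-in library still exceeded the highest C- library. *R02D3.1*, whose promoter drives the other reporter, stood at 798, 243, 17.6, 28.1 and 709 RPKM in C-in, at 394, 4.10, 5.59, 54.7 and 17.1 in C-, and at a mean of 1691 in C-out. *hlh-1* thus followed the label of the libraries, with C- embryo 1 carrying the most *hlh-1* and *R02D3.1* of its group.

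*unc-120* stood at 1251, 149, 946, 1045 and 828 RPKM in C-in (844 ± 418, SD, n = 5) and at 254, 67.0, 68.9, 199.9 and 117 in C- (141 ± 83.1, SD, n = 5). It was higher in C-in in all 5 embryos, although C-in embryo 2 lay below the top 2 C- libraries. The log2 fold change was 3.25 ± 0.67 (SE; edgeR quasi-likelihood test, Benjamini-Hochberg adjusted p = 0.0226 over the 3572 genes tested). *vab-7* was uneven. It stood at 0.790, 919.5, 1.98, 93.3 and 211 RPKM in C-in and at 9.50 or below in every C- library. Embryos 2, 5 and 6 held nearly all of it, and C-in embryos 1 and 4 were at the level of C-. It was not detected in enough libraries for the fit, and a two-sided exact permutation test on mean log2(RPKM + 25) gave p = 0.0635, where 0.00794 is the smallest p that 5 against 5 libraries allow. All 3 markers were above 25 RPKM in C-in embryos 2, 5 and 6, and in embryos 1 and 4 only *hlh-1* and *unc-120* were.

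**Figure D1:**
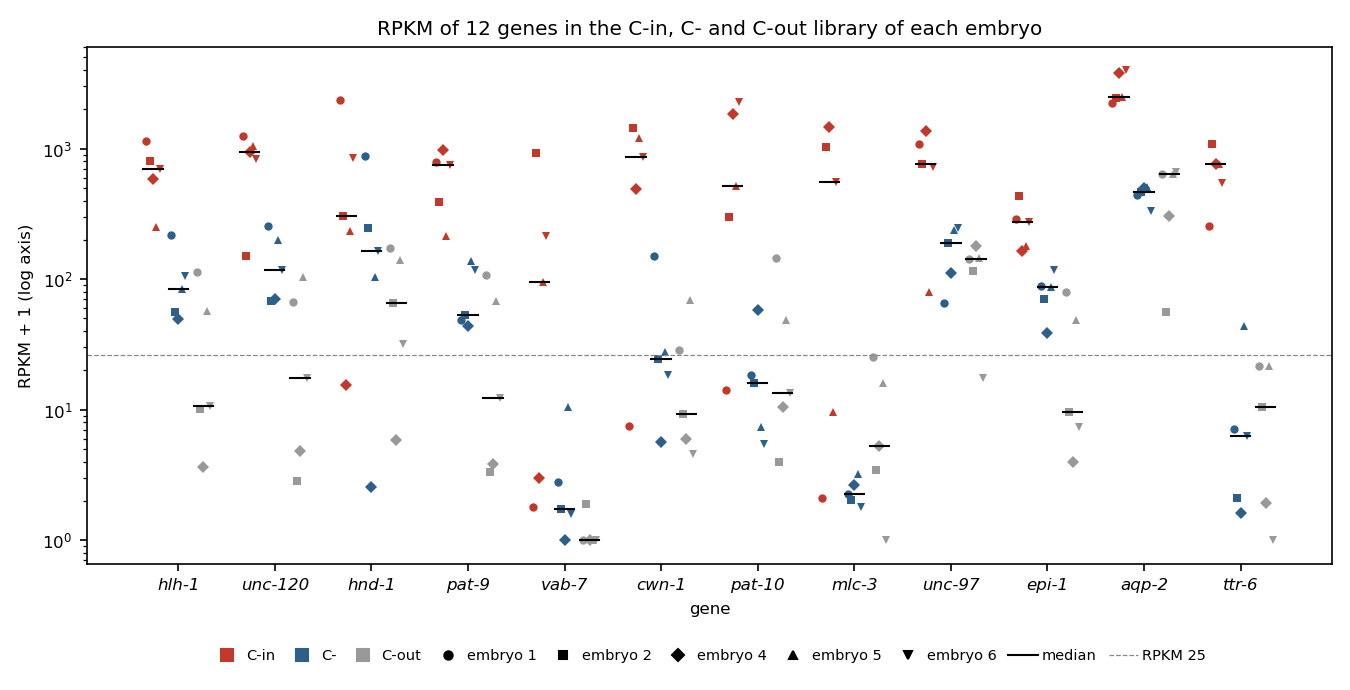
RPKM + 1 on a log axis of 12 genes in each C-in, C- and C-out library, with 1 point per embryo, bars at the group medians and a dashed line at RPKM 25. *hlh-1*, *pat-9*, *epi-1*, *aqp-2* and *ttr-6* show no overlap between C-in and C-, whereas *vab-7*, *cwn-1*, *pat-10* and *mlc-3* each have at least 1 C-in library near the C- level.

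Across the transcriptome, 3572 genes were above 25 RPKM in at least 5 of the 10 libraries and were tested. Of these, 56 genes passed an adjusted p of 0.05 in the higher direction (1.57%) and 4.79% in the lower. The median gene had a log2 fold change of 0.69 with TMM (trimmed mean of M values) scaling, and of -0.16 with library totals alone, so changes are also given relative to the median gene. With the embryo as a block, 22 genes were higher (0.616%) and 4 lower (0.112%), all of them among the genes called without the block, and 20 of the 56 higher genes also passed with library totals. Every C-in library exceeded every C- library for 49 genes (1.37%) and every one was lower for 323 (9.04%). Of the 56 higher genes, 37 were higher in all 5 embryos and 46 were above 25 RPKM in every C- library too. Most of the lower genes were under the detection level in C-in, 147 of them in every C-in library. Such a gene entered the test only through C- and had to differ, so the number of lower genes is a description only. Of the genes tested, 210 entered only through C- and 3 only through C-in, and those named are given with their values and fitted change but no p. In bulk libraries, fewer cells of a type and less RNA per cell cannot be told apart.

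The number of calls fell most without embryo 4. In that fit only *aqp-2* remained higher (1 higher, 0 lower, 3599 tested), while the next smallest adjusted p was 0.0701. Several genes named below share this value, so it does not show that each of them depended on embryo 4. The same edgeR fit had 45 higher and 180 lower genes at an adjusted p under 0.1, the latter a description only. It had 597 genes at an unadjusted p under 0.05, against 626 with all embryos and 551 without embryo 5. Without embryo 1, 2, 5 or 6, 27 to 35 of the 56 higher calls and 121 to 153 of the lower calls remained. The number of lower calls that remained is a description only, since 147 lower genes entered the test through C- alone. Calls also depended on level. The 1191 genes with the lowest mean RPKM (17.5 to 75.7) held 0 higher and 95 lower genes, and the 1191 with the highest (155 to 3759) held 54 higher and 30 lower.

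**Figure D2:**
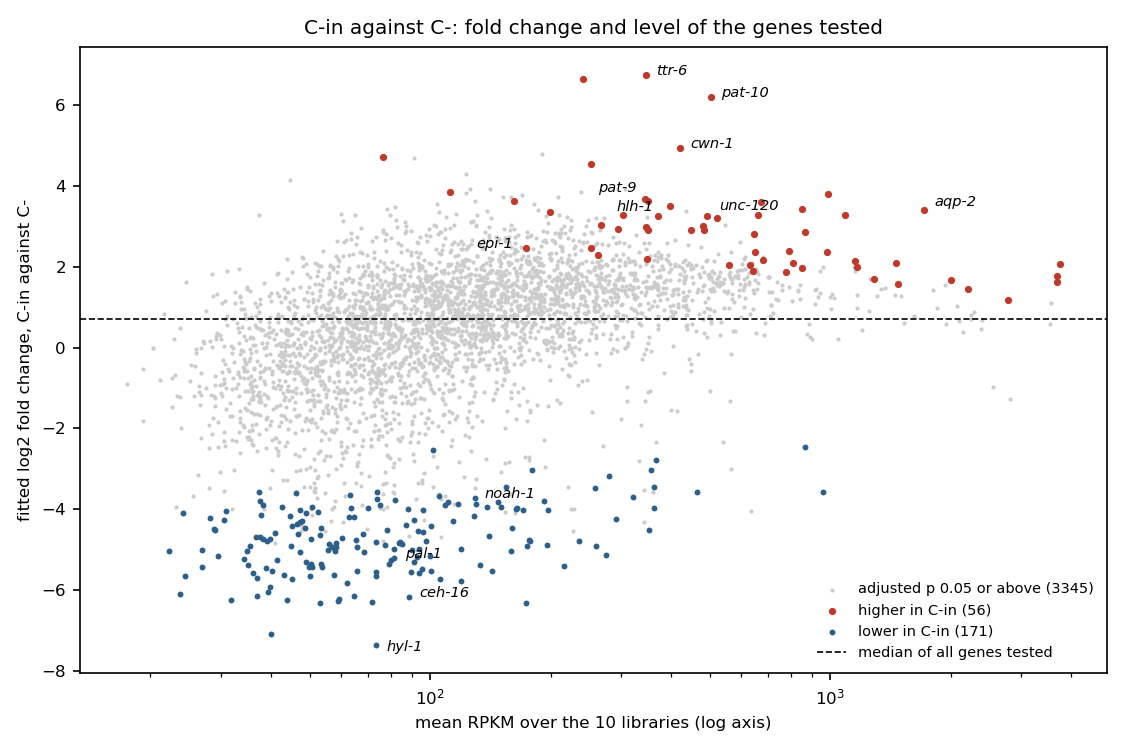
Log2 fold change of C-in against C- for each of the 3572 genes tested, against mean RPKM on a log axis, with the higher and lower calls coloured and a dashed line at the median gene (0.69). Higher genes sit at the right, at high RPKM, and most lower genes at the left, with 30 of them among the 1191 genes of highest RPKM.

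Besides the reporter gene *hlh-1*, the muscle regulators called higher were *unc-120* and *pat-9*, the latter from outside the list of 3. *pat-9*, a zinc finger factor required for body muscle, stood at 786, 392.3, 974, 212 and 754 RPKM in C-in (624 ± 312) and at 47.5, 51.8, 42.99, 136 and 116 in C- (78.9 ± 43.8). The groups did not overlap. Its log2 fold change was 3.63 ± 0.58 (SE), 2.94 above the median gene (edgeR adjusted p = 0.0178). *hnd-1* stood at 2345, 304, 14.6, 233 and 845 RPKM in C-in and at 882, 245, 1.56, 103 and 163 in C-. The 2 groups overlapped widely, with embryo 1 high and embryo 4 low in both, but C-in exceeded C- in each of the 5 embryos. Neither the fit (log2 fold change 2.13 ± 1.24, edgeR adjusted p = 0.405) nor the block (adjusted p = 0.162) passed the threshold for *hnd-1*. Of the list of 3 muscle regulators, 2 passed in the higher direction, one being the reporter gene *hlh-1* (log2 fold change 3.49), against 1.57% of all genes tested; with the block only 1 did, *unc-120*. Without embryo 4 the adjusted p was 0.0701 for *pat-9* and 0.0703 for *unc-120*.

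Genes of the contractile apparatus were present in some C-in libraries and not in others. Only 7 of 24 sarcomere genes passed the filter, with 2 higher and 0 lower (1 and 0 with the block; 1.57% higher and 4.79% lower over all genes tested). Their median log2 fold change was 2.14, against 0.69 over all genes tested and 1.39 over the 1191 genes of highest RPKM. *pat-10*, the troponin C of body muscle, stood at 13.2, 299, 1841, 514 and 2264 RPKM in C-in (986 ± 1001) and at 17.3, 14.98, 56.9, 6.42 and 4.47 in C- (20.0 ± 21.3). C-in embryo 1 was at the C- level and the other 4 embryos were far above it. The log2 fold change was 6.20 ± 1.26 (edgeR adjusted p = 0.0226, and 0.0488 with the block); without embryo 4 the gene no longer passed the filter and was not tested. *act-1*, an actin used in body muscle, stood at 189, 819, 519.8, 573 and 465 RPKM in C-in and at 118.97, 254, 191, 165 and 183 in C-. It was higher in C-in in all 5 embryos, with a log2 fold change of 2.18 ± 0.61 (edgeR adjusted p = 0.0463, but 0.165 with the block, and 0.0598 to 0.151 with any 1 embryo left out). The worm actins are near-identical in sequence, and reads may have been shared among them.

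Other sarcomere genes also differed between embryos. *mlc-3*, an essential light chain of muscle myosin, stood at 1.10, 1026, 1474, 8.53 and 554 RPKM in C-in and at 2.2 or below in every C- library. Embryos 2, 4 and 6 carried it and embryos 1 and 5 barely did (exact permutation test, p = 0.0317). *unc-27*, a troponin I, stood at 4.89, 159.7, 136, 187 and 28.8 RPKM in C-in and reached 147 in C- embryo 6 (log2 fold change 2.35 ± 1.80, edgeR adjusted p = 0.530). The other abundant actins differed less: *act-2* was at 572 ± 308 RPKM in C-in and 214 ± 93.4 in C- (adjusted p = 0.0652), and *act-4* at 2095 ± 1169 and 2098 ± 840.1 (adjusted p = 0.50). In C-in embryos 1, 2, 4, 5 and 6, 5, 8, 10, 7 and 9 of the 24 sarcomere genes were above 25 RPKM, and in C- 6, 6, 6, 6 and 8. Many genes of the differentiated sarcomere were low: 14 of the 24 stayed under 25 RPKM in all C-in libraries, and 5 had no count in any of them.

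Attachment genes, which join the muscle cytoskeleton to the extracellular matrix through integrin, gave 1 higher and 0 lower gene among 5 tested of 18 (1.57% higher and 4.79% lower over all genes tested), and none with the block. That gene was *unc-97*, the PINCH homolog with LIM domains. It stood at 1074, 762, 1363, 79.0 and 719 RPKM in C-in (799.5 ± 479.7) and at 64.2, 187, 109.8, 236 and 247 in C- (169 ± 79.6). C-in embryo 5 fell within the C- range and the other 4 were above it. The log2 fold change was 2.90 ± 0.70 (edgeR adjusted p = 0.0251, but 0.0930 with the block, and 0.0382 to 0.127 with 1 embryo left out, above the threshold without embryo 1, 2, 4 or 6). *pat-6*, the parvin that binds in the same complex, had a similar profile at 1022, 739, 1247, 53.5 and 185 RPKM in C-in and 255, 59.4, 89.7, 158 and 274 in C- (log2 fold change 2.65 ± 0.84, adjusted p = 0.0800). Both were low in C-in embryo 5.

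Other attachment genes gave no call. *pat-3*, the beta integrin, was at 175 ± 90.2 RPKM in C-in and 271 ± 76.1 in C-, lower in C-in in all 5 embryos in RPKM, with a log2 fold change of 0.07 ± 0.58 that became -0.81 with library totals (adjusted p = 0.958). *unc-112*, the kindlin homolog, was at 145 ± 138 and 180.2 ± 58.3 RPKM (log2 fold change 0.34 ± 0.70, and -0.49 with library totals, adjusted p = 0.830). The alpha integrin *pat-2* stood at 0.160, 359.6, 347, 21.9 and 3.29 RPKM in C-in and at 0.0900, 8.95, 8.28, 0.870 and 1.55 in C-, higher in C-in in all 5 embryos and by most in embryos 2 and 4 (exact permutation test, p = 0.111).

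The other LIM domain genes that the study considered for internalizing cells exceeded 25 RPKM in at most 1 C-in library. Of these, the study reported only *lim-9* as enriched in the Cxp descendants. It placed the enrichment of *pxl-1* in the MS and D descendants and that of *zyx-1* in the E lineage. *lim-9* stood at 0.340, 0, 434, 1.73 and 2.37 RPKM in C-in and at 0.670 or below in every C- library. A single library, C-in embryo 4, held 99.0% of the summed C-in RPKM (exact permutation test, p = 0.0873). *pxl-1*, the paxillin homolog, was at 1.53 RPKM or below in every C-in library and at 23.4, 43.5, 24.4, 106 and 229 in C-. The groups did not overlap (exact permutation test, p = 0.00794, the smallest possible; with signs changed within embryos p = 0.0625, which is the smallest that test allows). *zyx-1*, the zyxin homolog, had 0 RPKM in all 10 libraries. *nhr-171*, a nuclear hormone receptor, stood at 4.52, 0, 0, 0.650 and 0.590 RPKM in C-in and at 26.3, 0, 3.51, 0.330 and 0.370 in C- (exact permutation test, p = 0.619). *afd-1*, the afadin homolog, was at 36.7 ± 40.3 RPKM in C-in and 36.5 ± 21.3 in C- (log2 fold change 0.78 ± 1.13, and -0.18 with library totals, edgeR adjusted p = 0.751).

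Laminin and other matrix genes were read in both groups, and 9 of 14 basement membrane genes were tested. Of these, 1 was higher and 1 lower (1.57% higher and 4.79% lower over all genes tested), and with the block 1 was higher and 0 lower. Their median log2 fold change was 1.64, against 0.69 over all genes tested and 1.39 over the 1191 genes of highest RPKM. *epi-1*, a laminin alpha subunit, stood at 289.9, 436, 163, 179.9 and 273 RPKM in C-in (268 ± 109) and at 87.3, 69.4, 37.6, 85.6 and 117 in C- (79.4 ± 29.1). No library overlapped with the other group. The log2 fold change was 2.47 ± 0.43, 1.77 above the median gene (edgeR adjusted p = 0.0178, 0.00107 with the block and 0.0701 without embryo 4). *dgn-1*, dystroglycan, a laminin receptor of epithelia and neurons in the worm, was low in C-in. It stood at 2.03, 2.93, 1.27, 2.30 and 1.80 RPKM in C-in and at 138, 153, 76.6, 72.9 and 104 in C-. It entered the test only through C-, so the groups could not overlap (log2 fold change -5.02 ± 1.03).

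None of the remaining matrix genes named was called. *lam-1*, the laminin beta subunit, was at 263 ± 159 RPKM in C-in and 140.0 ± 40.1 in C- (log2 fold change 1.64 ± 0.58, adjusted p = 0.123). *nid-1*, nidogen, ranged from 3.29 to 508 RPKM in C-in and from 7.26 to 196 in C- (adjusted p = 0.492). *ost-1*, the SPARC homolog, stood at 5.72, 101, 704, 298 and 503 RPKM in C-in and 1.93, 86.3, 139.8, 10.3 and 289 in C-, higher in C-in in all 5 embryos (log2 fold change 2.13 ± 1.27, adjusted p = 0.414). *pxn-2*, a peroxidasin, was at 45.1, 89.05, 39.0, 66.7 and 79.8 RPKM in C-in and at 20.0 or below in C- (log2 fold change 3.28 ± 0.99). It entered the test only through C-in, so the groups could not overlap. *emb-9*, a type IV collagen, was at 78.9 and 71.6 RPKM in C-in embryos 4 and 6, at 0.390 or below in the other 3, and at 2.15 or below in every C- library.

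Among 15 tested of 25 Wnt genes, 2 were higher and 3 lower (1 and 0 with the block; 1.57% higher and 4.79% lower over all genes tested), and 6 were above and 9 below the median gene. *cwn-1*, a Wnt ligand, stood at 6.45, 1430.0, 486, 1202 and 857 RPKM in C-in (796 ± 568) and at 150.2, 23.6, 4.70, 26.4 and 17.3 in C- (44.4 ± 59.7). Embryo 1 went against the other 4, being the lowest C-in library and the highest C- library. The log2 fold change was 4.93 ± 1.19 (edgeR adjusted p = 0.0251, 0.0408 with the block). It was lost without embryo 2, 4, 5 or 6 (adjusted p 0.0755 to 0.110) and kept without embryo 1 (0.0171). *mig-14*, the Wntless homolog that Wnt-secreting cells need, stood at 85.9, 700.4, 321, 292 and 315 RPKM in C-in and at 101, 58.4, 55.2, 61.4 and 7.0 in C-. Only in embryo 1 was it not higher in C-in (log2 fold change 3.37 ± 0.83, adjusted p = 0.0265, but 0.0954 with the block and 0.0563 to 0.123 without embryo 2, 4, 5 or 6).

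The 3 lower Wnt genes entered the test only through C-. *cwn-2*, another ligand, was at 2.50 RPKM or below in every C-in library and at 85.8, 47.8, 68.6, 94.4 and 49.7 in C- (log2 fold change -5.38 ± 1.32). *cfz-2*, a Frizzled receptor, was at 1.90 RPKM or below in C-in and at 71.0, 185, 54.1, 212 and 61.4 in C- (log2 fold change -6.27 ± 1.34). *wrm-1*, a beta-catenin of the asymmetric division pathway, was at 1.87, 9.00, 2.04, 2.72 and 4.41 RPKM in C-in and at 43.6, 113, 168, 100.3 and 184 in C- (log2 fold change -4.20 ± 1.04). All 3 were separated from C- in every embryo. The ligand *mom-2* stood at 1.27, 539, 720.0, 139 and 395 RPKM in C-in and 59.9, 224, 2.11, 15.2 and 79.6 in C-, lower in C-in only in embryo 1 (log2 fold change 2.84 ± 1.28, edgeR adjusted p = 0.252). *gsk-3*, the glycogen synthase kinase of the pathway, was at 309.5 ± 224 RPKM in C-in and 151 ± 52.1 in C- (adjusted p = 0.237).

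Among the C lineage and posterior regulators, *pal-1* itself was near 0 in C-in. It stood at 3.47, 0, 2.47, 6.40 and 1.17 RPKM in C-in and at 253, 146, 76.2, 201 and 124 in C-. No library overlapped (log2 fold change -5.21 ± 1.26). *mab-21* was at 8.29 RPKM or below in C-in and at 32.05 to 232 in C- (log2 fold change -3.35 ± 1.08). Of the 9 genes in the list, 3 were tested, with *cwn-1* called higher and *pal-1*, which entered only through C-, lower (1.57% higher and 4.79% lower over all genes tested). *tbx-8*, a T-box factor, exceeded 25 RPKM in a single C-in library, embryo 1, at 419, with 10.0 or below in the other 4.

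Hox genes and their cofactors gave no call among 3 tested of 9, where 1.57% of all genes were called higher and 4.79% lower. *lin-39*, a mid-body Hox gene, stood at 9.46, 478, 9.91, 115 and 1435 RPKM in C-in and at 8.12, 0.690, 9.68, 0.990 and 0.720 in C-. It was higher in C-in in all 5 embryos, by little in embryos 1 and 4 (exact permutation test, p = 0.0159; 0.0625 with signs changed within embryos). *mab-5*, the next Hox gene, stood at 0, 598, 1.58, 293 and 20.1 RPKM in C-in and at 62.2 or below in C- (exact permutation test, p = 0.238). *unc-62*, the Meis-type cofactor, stood at 3.48, 764, 679.6, 411 and 425 RPKM in C-in and at 141, 153, 106, 296 and 165 in C-. Its log2 fold change was 2.13 ± 0.86 (edgeR adjusted p = 0.192, and 0.0368 without embryo 1). *ceh-20*, a Pbx-type cofactor, ranged from 9.66 to 470.3 RPKM in C-in and from 89.9 to 246 in C- (adjusted p = 0.531).

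The posterior Hox gene *php-3* exceeded 25 RPKM in C-in embryo 5 alone, at 457, with 12.4 or below in the other 4. In C-in embryo 1, 0 of the 9 Hox list genes were above 25 RPKM, against 4, 2, 6 and 4 in embryos 2, 4, 5 and 6. That library was also at the C- level for *vab-7*, *cwn-1*, *pat-10* and *mlc-3* while having the highest *hlh-1*, *unc-120* and *hnd-1* of its group.

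**Figure D3:**
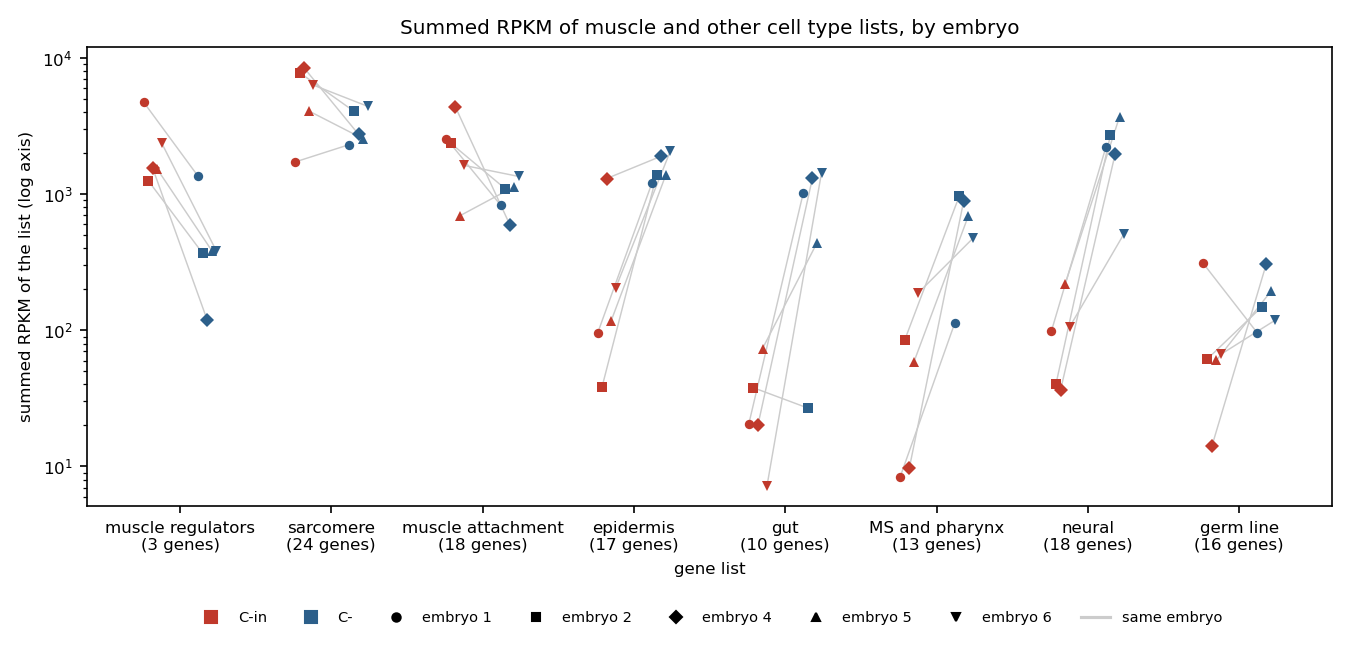
Summed RPKM of 8 gene lists in each library on a log axis, C-in in red and C- in blue, with a line joining the 2 libraries of 1 embryo. Muscle regulators, which include the reporter gene *hlh-1*, were higher in C-in in all 5 embryos (1258 to 4743 against 118.9 to 1354). The sarcomere list was lower in C-in in embryo 1 (1724.5 against 2317) and higher in the others. Muscle attachment was lower in C-in in embryo 5 (695 against 1137) and higher in the others. The neural list was lower in all 5 (36.4 to 219 against 514 to 3714).

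The 10 genes with the largest rises that were higher in all 5 embryos included *hlh-1* and *pat-9*. The largest was *ttr-6*, a transthyretin-related gene, at 256, 1087, 757, 763 and 547 RPKM in C-in (682 ± 307) and 6.15, 1.12, 0.610, 42.8 and 5.30 in C- (11.2 ± 17.8). Its log2 fold change was 6.73 ± 1.32 (edgeR adjusted p = 0.0226, 0.0178 with the block). *aqp-2*, an aquaporin, was the most even, at 2232, 2437, 3812, 2481 and 3967 RPKM in C-in (2986 ± 832) and 442, 461, 502, 504 and 332 in C- (448 ± 70.1). Its log2 fold change was 3.40 ± 0.36, 2.70 above the median gene (adjusted p = 0.000339), and it was the only gene called whichever embryo was left out (adjusted p 0.0103 to 0.0380). *spp-10*, a saposin-like gene, was at 1179.8 ± 476 RPKM in C-in and 164 ± 136 in C- (log2 fold change 3.60 ± 0.63, adjusted p = 0.0178). *F37H8.5* was at 1482 ± 543 and 219.9 ± 194 RPKM (log2 fold change 3.44 ± 0.69, adjusted p = 0.0226). The groups did not overlap for any of these 4, and without embryo 4 the adjusted p of *ttr-6*, *spp-10* and *F37H8.5* was 0.0701.

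The other 4 of the 10 were *syg-2*, *ver-3*, *zmp-1* and *Y17D7C.4*. *syg-2*, an immunoglobulin superfamily protein known as a guide for synapse placement, stood at 79.7, 81.3, 391.6, 129.7 and 36.1 RPKM in C-in and at 2.05, 11.3, 9.89, 19.1 and 1.27 in C- (log2 fold change 4.71 ± 1.01, with no p since it entered the test only through C-in). *ver-3*, related to the VEGF receptors, stood at 143, 438, 99.5, 252.4 and 72.6 RPKM in C-in and at 14.4, 53.3, 0.930, 41.0 and 8.86 in C-. It passed with the block (edgeR adjusted p = 0.0178) and without it (log2 fold change 3.84 ± 0.97, adjusted p = 0.0293), and was lost with any 1 embryo left out (0.0590 to 0.0791). *zmp-1*, a matrix metalloprotease, was at 181, 342, 166, 359 and 388 RPKM in C-in and 62.2, 13.7, 22.7, 42.3 and 49.0 in C- (log2 fold change 3.62 ± 0.77, adjusted p = 0.0226, but 0.0900 with the block and 0.0701 without embryo 4). None of these 3 overlapped between groups, as the filter required for *syg-2*. *Y17D7C.4*, of no annotation here, was at 152, 2133, 2289, 1602 and 2691 RPKM in C-in and 143 to 295 in C-, embryo 1 again at the C- level (log2 fold change 3.80 ± 0.73, adjusted p = 0.0226, but 0.0584 with the block and 0.0701 without embryo 4).

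Further genes outside the naming rule, chosen after their values were seen, had higher levels in C-in. *sup-12*, an RNA-binding regulator of muscle splicing, stood at 338, 1870.4, 1357, 2826 and 2956 RPKM in C-in and at 333, 178, 224, 292 and 488 in C- (log2 fold change 3.28 ± 0.67, edgeR adjusted p = 0.0226, but 0.0712 with the block and 0.0701 without embryo 4). *mnp-1*, a peptidase-like gene with a role in muscle precursor migration, stood at 563, 1427, 936, 682 and 393 RPKM in C-in and at 95.9, 297, 117, 183 and 115 in C- (log2 fold change 3.02 ± 0.52, adjusted p = 0.0178, 0.000814 with the block and 0.0701 without embryo 4). In both, C-in was higher in all 5 embryos, for *sup-12* by little in embryo 1. *fib-1*, the nucleolar fibrillarin, was at 1486 ± 452 RPKM in C-in and 473 ± 131 in C- without overlap (log2 fold change 2.36 ± 0.43, adjusted p = 0.0226, 0.0482 with the block and 0.0701 without embryo 4).

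**Figure D4:**
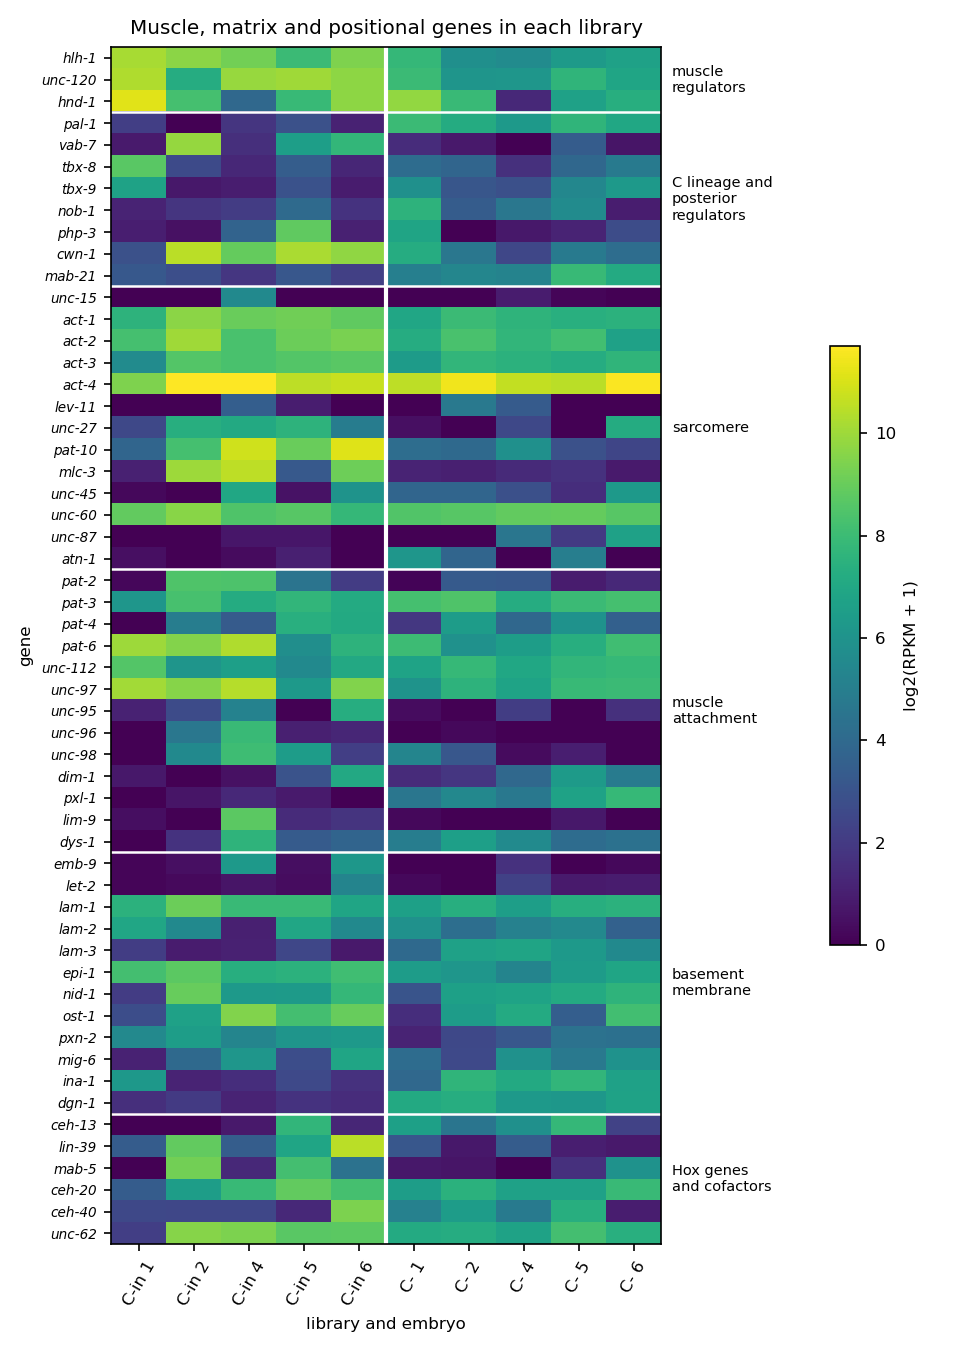
Log2(RPKM + 1) of 55 genes in the 10 libraries, in blocks by gene list, with C-in libraries on the left and C- libraries on the right in embryo order. The blocks are muscle regulators, C lineage and posterior regulators, sarcomere, muscle attachment, basement membrane, and Hox genes and cofactors. Brighter colours are higher values. In C-in embryo 1, *vab-7*, *cwn-1*, *pat-10* and *mlc-3* are at the C- level.

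The largest falls were of genes at or near 0 in C-in, so the size of the fitted change depends on the prior count and is no bound. The largest were *hyl-1*, a ceramide synthase, at 0, 0, 0, 1.44 and 1.32 RPKM in C-in and 268, 156, 107, 110.5 and 87.9 in C- (log2 fold change -7.36 ± 1.47), and *nfya-1*, a subunit of the NF-Y factor, at 0.980 or below in C-in and 87.5, 67.7, 34.1, 103 and 107 in C- (log2 fold change -7.08 ± 1.36). These were 2 of the 4 lower genes that the block kept, *ncam-1* and *asns-2* being the others. *ceh-16*, the engrailed homolog of epidermal seam cells, was at 4.05 RPKM or below in C-in and at 185, 135, 198, 155 and 207 in C- (log2 fold change -6.18 ± 1.33). *hsp-16.41*, a small heat shock protein gene, was at 8.58 RPKM or below in C-in and ranged from 40.8 to 1197 in C- (log2 fold change -6.32 ± 1.64). *Y56A3A.22*, *D1054.1*, *F46B6.12*, *F44G4.3* and *btb-1*, a BTB domain gene, had log2 fold changes of -6.32, -6.31, -6.25, -6.24 and -6.22 and were at 4.89 RPKM or below in every C-in library. All the genes of this paragraph but *asns-2* entered the test only through C-.

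Most epidermis, neural, gut and pharynx markers were low in C-in, while the summed germ line markers overlapped between the groups. Epidermis markers summed to 38.6 to 1304 RPKM in C-in (median 118) and to 1214 to 2064 in C-, with 0 higher and 2 lower of 7 tested of 17 (1.57% higher and 4.79% lower over all genes tested; none with the block), and all 7 below the median gene. The 2 were *let-413*, the Scribble homolog, at 17.5 RPKM or below in C-in and 132 to 204 in C- (log2 fold change -4.26 ± 1.04), and *noah-1*, of the apical matrix, at 7.95 to 21.0 RPKM in C-in and 150.1 to 378 in C- (log2 fold change -3.72 ± 0.75). Both entered the test only through C-. *elt-1*, the GATA factor that specifies epidermis, stood at 5.68, 3.53, 0, 9.06 and 1.57 RPKM in C-in and at 269.5, 73.0, 19.8, 158 and 95.3 in C- (exact permutation test, p = 0.00794; 0.0625 with signs changed within embryos).

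C-in embryo 4 differed from the rest of its group in this list. *lin-26*, an epithelial zinc finger factor, stood at 14.8, 3.64, 641, 15.6 and 14.99 RPKM in C-in and 112.3, 174, 193, 183 and 332 in C- (log2 fold change 0.02 ± 1.18, and -0.70 with library totals, edgeR adjusted p = 0.998; -3.44 and 0.109 without embryo 4). *noah-2* stood at 12.5, 4.65, 239, 15.8 and 9.90 RPKM in C-in and 139, 217, 376, 187 and 541 in C- (log2 fold change -1.83 ± 1.03, adjusted p = 0.387; 0.0701 without embryo 4). In that library *elt-1* was at 0 and 4 of 17 epidermis markers were above 25 RPKM. Their part in the calls lost without embryo 4 was not tested.

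Neural markers summed to 36.4 to 219 RPKM in C-in and 514 to 3714 in C-. Of 18, 4 were tested, 3 were lower (none with the block; 4.79% over all genes tested) and all 4 were below the median gene. These were *cnd-1*, a NeuroD homolog, at 6.45 RPKM or below in C-in and 76.8, 123, 92.5, 463 and 173 in C-, *vab-3*, the Pax6 homolog, at 3.71 or below and 41.8 to 181, and *sox-2*, at 14.2 or below and 37.4 to 634. Their log2 fold changes were -5.58 ± 1.31, -5.36 ± 1.18 and -5.03 ± 1.22, and all 3 entered the test only through C-. The proneural genes *lin-32*, *ngn-1* and *hlh-16* were at 255 RPKM or more, 158 or more and 329 or more in 4 C- libraries and near the C-in level in C- embryo 6, at 2.69, 3.07 and 6.05.

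Most gut, MS and pharynx markers were low in C-in, and they were uneven in C-. Gut markers summed to 7.24 to 73.4 RPKM in C-in and 26.8 to 1437 in C-, and the GATA factor *elt-7* stood at 16.2, 10.8, 6.21, 66.0 and 5.87 in C-in and 936, 5.75, 908, 284 and 1178 in C- (log2 fold change -4.31 ± 1.34, edgeR adjusted p = 0.0740). *elt-2*, the later gut GATA factor, was at 1.61 RPKM or below in C-in and 0.190 to 112.4 in C-, *act-5*, the intestinal actin, at 0.680 to 26.1 and 18.5 to 180.3, and *dve-1* at 0.760 or below and 0 to 67.6. C- embryo 2 was as low as C-in for *elt-7*, *elt-2* and *dve-1*. MS and pharynx markers summed to 8.39 to 189 RPKM in C-in and 112.5 to 966 in C-. *pha-4*, the FoxA factor of the foregut, stood at 4.83 or below in C-in and 6.15, 101, 111.9, 123 and 13.4 in C- without overlap (exact permutation test, p = 0.00794; 0.0625 with signs changed within embryos). *ceh-34* and *tbx-2* were at 3.86 RPKM or below in C-in and above 30 in every C- library but embryo 1, which had 0.340 and 0.400. *eya-1* reached 186 RPKM in C-in embryo 6 and was 95.8 to 157 in C- (log2 fold change -0.45 ± 1.08, and 0.34 with median-ratio scaling, adjusted p = 0.857).

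Germ line markers summed to 14.1 to 313 RPKM in C-in and 95.9 to 308 in C-, with no call among 2 tested of 16. *spn-4*, a maternal RNA-binding protein gene, stood at 284, 0.810, 0, 4.92 and 2.99 RPKM in C-in and at 61.4, 128, 110.0, 3.1 and 108 in C- (log2 fold change 0.15 ± 1.61, and -0.68 with library totals, edgeR adjusted p = 0.968), embryo 1 holding 97.02% of the C-in sum. *pie-1* was at 42.9 ± 21.0 RPKM in C-in and 19.3 ± 9.75 in C- (adjusted p = 0.331). *nos-2* and *xnd-1*, used by primordial germ cells, were at 1.19 RPKM or below in every C-in library and each exceeded 25 RPKM in a single C- library, at 119.2 in embryo 4 and 67.8 in embryo 5.

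No gene of the apical constriction list passed the test in either direction, among 20 tested of 29; 7 were above and 13 below the median gene, against backgrounds of 1.57% and 4.79% called. *mlc-4*, the regulatory light chain of non-muscle myosin, stood at 68.2, 4.37, 1220.5, 552 and 536 RPKM in C-in and 133 to 249 in C- (log2 fold change 2.06 ± 1.07, adjusted p = 0.334). *ced-10*, which acts in actin remodelling, and *cap-2*, a subunit of the actin capping protein, ranged from 8.30 to 738 and from 24.5 to 916 RPKM in C-in, and from 74.7 to 286 and from 147 to 359 in C- (log2 fold changes 1.57 ± 1.16 and 0.97 ± 0.93, adjusted p = 0.514 and 0.613). The C-in libraries spread more widely than the C- libraries for all 3.

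Of 12 tested cell cycle genes, 2 were lower and 0 higher (1.57% higher and 4.79% lower over all genes tested; none with the block). Both encode CDK inhibitors, which hold cells out of division, and both entered the test only through C-. *cki-1* was at 2.43, 1.56, 3.02, 3.14 and 2.86 RPKM in C-in and at 39.6, 133, 206, 196 and 211 in C- (log2 fold change -5.25 ± 1.10). *cki-2* was at 5.01, 13.1, 5.35, 13.9 and 5.06 RPKM in C-in and at 192, 98.1, 172, 273 and 506 in C- (log2 fold change -4.16 ± 1.07). Every C-in library was below every C- library for both. The mitotic genes *cyb-3*, *cdk-1* and *cyb-1* were at 1025 ± 608, 691 ± 475 and 506 ± 389 RPKM in C-in and 555 ± 97.4, 372 ± 62.4 and 365 ± 121 in C-, with log2 fold changes of 1.503 ± 0.54, 1.58 ± 0.70 and 1.06 ± 0.64 (edgeR adjusted p = 0.130, 0.246 and 0.416).

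Notch genes were mostly low. Of 12 genes in the list of the pathway and the REF-1 family, which also held the Zic factor *ref-2*, 10 were under 25 RPKM in every C-in library. *lag-1*, the transcription factor of the pathway, was the only one tested, at 871, 3.11, 0, 152 and 5.33 RPKM in C-in and 64.2 to 150.01 in C- (log2 fold change 1.56 ± 1.43, and -1.17 without embryo 1, edgeR adjusted p = 0.598). *ref-2*, a Zic factor, was at 11.96 RPKM or below in C-in and 46.9, 219, 212, 330.2 and 1.55 in C- (exact permutation test, p = 0.0317; 0.125 with signs changed within embryos). The receptor *lin-12* reached 49.6 RPKM in C-in and 35.5 in C-, and the ligand *apx-1* 0.550 and 31.8 (exact permutation tests, p = 0.754 and 0.167).

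Of the 391 genes that the study lists for the C lineage, which it chose in part on these libraries and which are therefore no independent evidence of direction, 278 were tested. Of these 15 were higher and 0 lower (5 and 0 with the block; 1.57% higher and 4.79% lower over all genes tested), and 248 were above the median gene and 30 below. Their median log2 fold change was 1.75, against 0.69 over all genes tested and 1.39 over the 1191 genes of highest RPKM. Ribosomal protein genes were read in all libraries, with 1 higher and 0 lower of 73 tested (none with the block) and 72 above the median gene. Their median log2 fold change was 1.67 with TMM scaling and 0.79 with library totals, against 1.39 and 0.52 over the 1191 genes of highest RPKM. Genes of the F-box families named *fbxb* and *fbxc* gave 1 higher and 3 lower of 14 tested, and 2 higher and 1 lower of 9 tested, of which the block kept 1, an *fbxc* gene. In C-in embryo 1, 26 of 113 *fbxb* genes were above 25 RPKM, against 3 to 8 in the other C-in libraries and 20 to 43 in C-. Called genes fell on every chromosome, with X holding 9 higher of 297 tested (3.03%) and 23 lower (7.74%), and V 3 higher of 374 (0.802%) and 24 lower (6.42%).

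The C-out sister cells had low levels of the muscle regulators. In a fit of the C-in, C-out and C- libraries, 141 of 4592 tested genes passed as higher against C-out (3.07%) and 474 as lower (10.3%); without the library labelled C-out replicate 1, 258 were higher and 506 lower of 4866. Since C-in against C- and C-in against C-out share the C-in libraries, values are given side by side only. *unc-120* was at 65.3, 1.82, 3.79, 104 and 16.6 RPKM in C-out (log2 fold change of C-in against C-out 5.02, edgeR adjusted p = 0.00248), *pat-9* at a mean of 37.9 (4.76, adjusted p = 0.00195), *epi-1* at 28.99 (3.85, 0.00118) and *ttr-6* at 10.3 (6.49, 0.00748). *unc-97* was at 119.4 RPKM (2.92, 0.0242, but 0.0511 with the block). *spp-10* and *F37H8.5* were at 319.7 and 406 RPKM in C-out, with log2 fold changes of 1.89 and 1.87 that did not pass (adjusted p = 0.0954 and 0.165). *lin-39* was at a mean of 315 RPKM in C-out and 409.5 in C-in (log2 fold change -0.09, adjusted p = 0.978).

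For some genes that were low in C-in, the C-out level was above that of C-. *noah-1* was at a mean of 869.8 RPKM in C-out and 246 in C- (log2 fold change of C-in against C-out -6.33), *dgn-1* at 419.8 and 109 (-7.95), and *cki-2* at 505 and 248 (-5.93). The epidermis markers *elt-1* and *let-413* were at 49.1 and 148 RPKM in C-out, under their C- means of 123 and 176.

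D descendants also form body muscle only, and the C-in effect was set against the D effect in a fit of the C-in, C-, D+ and D- libraries. No gene of 5585 tested differed at an adjusted p under 0.05 with edgeR (996 had an unadjusted p under 0.05; limma called 0 and DESeq2 203 higher and 369 lower), and the smallest adjusted p was 0.0854. Without D embryo 8, edgeR called 1 gene higher and 0 lower of 5510 tested (smallest adjusted p 0.0254). A p above the threshold does not show that the lineages act alike. For *unc-120*, with a D+ mean of 750.1 ± 548 RPKM against 64.4 ± 42.4 for the D- libraries (SD, n = 7), the C effect minus the D effect was -0.998 ± 1.14 (SE; edgeR adjusted p = 0.732). For *ttr-6*, at 100.0 ± 115 in D+ and 114 ± 118 in D-, it was 6.79 ± 2.26 (adjusted p = 0.113). For *cwn-1*, at 149 ± 254 and 199 ± 234.6, it was 5.43 ± 1.83 (adjusted p = 0.114). For *unc-97*, at 93.6 ± 109 and 139.8 ± 57.3, it was 3.50 ± 1.22 (adjusted p = 0.125). For *pat-10*, at 20.6 ± 43.7 in D+ and 354 ± 851 in D-, it was 11.79 ± 2.80 (adjusted p = 0.0854). With an SD so far above the mean, a single D- library held most of the *pat-10* signal in D-. For *hnd-1*, at 1943 ± 1684 RPKM in D+ and 748 ± 943 in C-in, the C effect minus the D effect was -1.45 ± 1.37 (adjusted p = 0.659).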

How the data were processed

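The deposited tables give, for each library, a read count and an RPKM for each of 31383 genes. The authors made these counts and RPKM values from Nextera XT libraries of cDNA amplified from single-embryo lysates with the SMARTer Ultra Low kit. The submitters' processing notes list ce10 and bedtools with no roles; the aligner, counter and strand setting were not given in the sources used here. For 1350 genes the deposited RPKM rests on a single stand-in length. Groups came from sample titles. Genes above 25 RPKM in at least 5 libraries (4 where an embryo was left out) were tested on the counts with edgeR 4.0.16 in R 4.3.3 (TMM scaling, quasi-likelihood test, group only, Benjamini-Hochberg, threshold 0.05). Single genes outside the fit were tested by exact two-sided permutation of libraries on mean log2(RPKM + 25), in Python 3.11.15 with numpy 2.4.6. The fit was checked on simulated counts. Same-numbered libraries came from the same embryo per the labels, so the numbers pair the samples, and blocked values or counts are given where they change a call, except for the reporter gene *hlh-1*, whose level is no test. Deviations from the group means correlated at -0.0081 to 0.0888 within embryos (median 0.0770) and at a median of 0.00125 between embryos. Alternatives were the embryo block, DESeq2 1.42.0, median-ratio scaling, library totals, limma 3.58.1 on log2(RPKM + 25), no filter, a pseudocount of 1, C-out added to the fit, the rejected embryos, and each embryo left out.

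Named genes (91, of which 23 were not tested in the fit) were the reporter genes and markers, genes the study names for these cells, the 10 largest rises and falls changed in the same direction in all embryos, and called or most abundant (up to 4) members of each list. *unc-27*, *pat-2*, *pxn-2*, *emb-9*, *tbx-8*, *php-3*, *sup-12*, *mnp-1*, *fib-1*, *ncam-1* and *asns-2* were chosen after their values were seen. The values of 1 other named gene are not reported here. Comparisons, members and lists were chosen with earlier results of these data known. IDs of 24784 genes matched the Ensembl WBcel235 annotation, used for chromosomes and overlaps only, and no coordinates or sequences are given.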

Additional observations from a re-analysis of the deposited data

Results flagged for a closer look

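In 182 groups of 5 libraries examined for the named genes, 28 held a library whose gap to the nearest other exceeded the 95% critical value of Dixon's test. Chance alone flags about 1 in 20 groups of normally distributed values. RPKM is skewed, with many values at or near 0, so the share that chance would flag here is not known. The values are RPKM. In C-in, embryo 1 was highest for *nhr-171* (4.52) and *spn-4* (283.57), and lowest for *Y17D7C.4* (151.87), *cwn-1* (6.45), *unc-62* (3.48) and *dve-1* (0). Embryo 2 was lowest for *unc-120* (149.33). Embryo 4 was highest for *lim-9* (434.22), *noah-2* (238.73) and *lin-26* (641.16). Embryo 5 was lowest for *unc-97* (78.98) and highest for *F44G4.3* (3.40), *btb-1* (4.89), *ref-2* (11.96), *elt-7* (65.99) and *hlh-16* (23.28).

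In C-, embryo 1 was highest for *nhr-171* (26.31) and lowest for *ceh-34* (0.34). Embryo 2 was highest for *lin-12* (35.54). Embryo 4 was lowest for *cyb-3* (388.5) and highest for *nos-2* (119.23). Embryo 5 was highest for *vab-7* (9.50), *lim-9* (0.67), *ttr-6* (42.80) and *xnd-1* (67.75). Embryo 6 was highest for *mab-5* (62.22) and lowest for *hlh-16* (6.05) and *lin-32* (2.69).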

How the results depend on the processing

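The counts of genes called depended on the processing. For C-in against C-, 24.7% of the calls were higher (56 genes). With the embryo as a block, 22 were higher and 4 lower (84.6% higher; median log2 fold change -1.12). DESeq2 gave 659 and 246 (72.8%), median-ratio scaling 141 and 109 (56.4%), library totals 20 and 236 (7.81%), no filter 108 and 13, limma 39 and 390, limma with the block 32 and 340, C-out added to the fit 33 and 132, and the rejected embryos added 27 and 12. Leaving out each embryo gave 1 to 39 higher and 0 to 308 lower. For C-in against C-out (141 higher, 474 lower), the block gave 56 and 201, DESeq2 691 and 605, median-ratio scaling 234 and 412, no filter 212 and 558, limma 86 and 196, library totals 57 and 435, and leaving out C-out replicate 1 gave 258 and 506. Leaving out each embryo gave 29 to 248 higher and 170 to 460 lower. For the C effect against the D effect (0 and 0), DESeq2 gave 203 and 369 and no filter 130 and 182; leaving out embryos gave 0 to 1 in each direction. Library totals, limma with the block and the fit without C-out replicate 1 were chosen after the data were seen. The cause of these shifts was not tested.

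Some named genes without a call changed direction (log2 fold changes). With the block these were *afd-1* (-0.32), *pat-3* (-0.0602), *unc-112* (-0.0773), *lag-1* (-2.34), *lin-26* (-2.64) and *spn-4* (-3.68). With limma, with and without the block, they were *afd-1* (-0.17), *act-4* (-0.13), *pat-3* (-0.65), *unc-112* (-0.51), *lag-1* (-0.74), *cap-2* (-0.39), *ced-10* (-0.20), *lin-26* (-1.70) and *spn-4* (-1.06). With library totals they were *afd-1* (-0.18), *act-4* (-0.18), *pat-3* (-0.81), *unc-112* (-0.49), *lin-26* (-0.70) and *spn-4* (-0.68). With the rejected embryos they were *afd-1* (-0.26) and *spn-4* (-0.0306). *eya-1* became 0.34 with DESeq2 and with median-ratio scaling, and *lin-12* -0.0047 with a pseudocount of 1. With each embryo left out in turn, *pat-3* ranged from -0.37 to 0.13 (negative without embryo 2, 4 or 5), *unc-112* from -0.76 to 0.57, *lag-1* from -1.17 to 1.98 and *cap-2* from -0.0289 to 1.26 (each negative without embryo 1), *lin-26* from -3.44 to 0.64 (negative without embryo 4) and *lin-12* from -0.18 to 0.30 (negative without embryo 5).

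With at most 1484869 reads in a C-in library and few cells behind it, a gene above 25 RPKM in a single C-in library cannot be told from one expressed at a low level in all.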
